A study of Homo sapiens with 4 samples.

Results

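The genes described here are ATF4 and DDIT3, which encodes CHOP, with 8 genes known as their stress-induced companions: ATF3, CHAC1, NUPR1, TRIB3, SESN2, DDIT4, PPP1R15A and CEBPB. They were taken by name from the deposited list of introns. Introns were listed for 9 of these 10 genes, 22 introns in all, out of 142206 introns of 15902 genes. CEBPB has a single exon in GENCODE 29 and no listed intron, so it was not analysed here. SUM159 cells, an established triple-negative breast cancer line of human origin, received H3B-8800, a spliceosome inhibitor, or its solvent DMSO, in both groups for 12 hours. Each group had 2 libraries, called biological duplicates in the series' design text, made from polyA-selected RNA of the cytoplasm. The p-values below therefore set the group difference against a spread between only 2 libraries a group of 1 cell line. In the tests of genes and introns, that spread was estimated with information shared over all features tested. Of the line's markers, all 6 mesenchymal ones had reads. Among the luminal ones with introns, ESR1 and PGR were at 0 in all 4 libraries and CDH1, EPCAM and ERBB3 reached at most 1.04 CPM (scaled read counts), while GATA3 had 3.59 and 3.95 CPM with H3B-8800 and 1.88 and 2.71 CPM with DMSO.

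ATF4 is a transcription factor of the bZIP family and the main effector of the integrated stress response. In that response, kinases that sense amino acid shortage, unfolded proteins in the endoplasmic reticulum, haem shortage or double-stranded RNA phosphorylate the initiation factor eIF2, which lowers most protein synthesis while translation of the ATF4 mRNA increases. ATF4 then turns on further regulators, among them CHOP and ATF3, and genes of amino acid, redox and growth control. PPP1R15A, also called GADD34, closes the loop by bringing a phosphatase to eIF2. Much of the control of ATF4 is translational, and RNA levels do not report it.

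Some of these genes are known to carry the composite C/EBP-ATF response element to which ATF4 binds with a C/EBP partner, so the promoters in RefSeq (GRCh38.p14) were searched from 250 bases before to 50 bases after each start. The element was searched as TGATGNAA and the cyclic AMP response element as TGACGTCA, each on both strands. A promoter was found for 9 of the 10 genes, NUPR1 being the exception, and 3 of the 9 genes held a match. Of 35116 promoters of the same length, 3.62% held TGATGNAA and 1.85% held TGACGTCA. These shares count single promoters and single motifs. Some of the 9 genes have several promoters, so the 3 of 9 cannot be compared with the shares directly. A match is a run of letters and not a measured binding site. The part upstream of the start is shown for these 3 genes, 5′ to 3′ on the plus strand, with the match in capitals; no 2 matches overlapped.
CHAC1, chr15:40953221-40953470: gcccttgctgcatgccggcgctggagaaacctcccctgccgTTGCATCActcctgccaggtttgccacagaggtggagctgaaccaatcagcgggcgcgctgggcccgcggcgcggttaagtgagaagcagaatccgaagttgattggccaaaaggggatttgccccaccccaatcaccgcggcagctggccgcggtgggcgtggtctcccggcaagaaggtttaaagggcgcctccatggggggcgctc
ATF3, chr1:212565157-212565406: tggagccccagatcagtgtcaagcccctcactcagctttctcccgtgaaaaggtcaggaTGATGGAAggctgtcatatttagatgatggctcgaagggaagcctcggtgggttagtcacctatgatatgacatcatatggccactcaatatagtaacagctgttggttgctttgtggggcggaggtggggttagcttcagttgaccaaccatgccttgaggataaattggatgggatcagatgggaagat
PPP1R15A, chr19:48872171-48872420: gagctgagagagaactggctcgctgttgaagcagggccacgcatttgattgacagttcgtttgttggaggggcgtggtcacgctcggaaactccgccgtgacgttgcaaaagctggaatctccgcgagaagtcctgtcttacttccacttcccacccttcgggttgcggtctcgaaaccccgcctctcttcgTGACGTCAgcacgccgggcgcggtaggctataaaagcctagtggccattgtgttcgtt
The CHAC1 match begins 209 bases before the start and reads TGATGNAA on the minus strand. In ATF3 the match TGATGGAA begins 191 bases before the start of the upstream promoter, while the gene's second listed promoter held neither motif. In PPP1R15A the match TGACGTCA begins 58 bases before the start.

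The introns with the most intronic reads (reads inside the intron) among the 22 were the first of DDIT4 and the last of PPP1R15A, and their last 30 bases are shown here as they lie on the plus strand, with the final AG in capitals.
DDIT4 intron 1, chr10:72274127-72274156: cgcctggtcggtccccctcttgtcttacAG
PPP1R15A intron 2, chr19:48875584-48875613: tcctgcctgtgtccccatgtctgcccgcAG
In each, 21 of the 28 bases before the AG were pyrimidines. The GC content was 61.5% over the whole intron in DDIT4 and 52.9% in PPP1R15A.

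For every listed intron the files gave the reads inside it, called intronic reads, and a second count from which reads that span it were obtained, called spliced reads. Library totals recovered from the deposited RPKM values were 58000000 and 62000000 reads for H3B-8800, and 64000000 for each of the DMSO libraries. Reads over several introns were counted at every one of them. Spliced reads per gene are given in CPM, spliced reads of the gene per 1000000 spliced reads of the library after TMM scaling, which sets the typical gene to no change. Because the libraries are bulk RNA, a change in all cells cannot be told apart from a larger one in some cells, nor fewer cells from less RNA per cell.

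Spliced RNA of 8 of the 9 measured genes was more abundant with H3B-8800 than with DMSO, and none was less abundant (quasi-likelihood test of edgeR, p adjusted over 9468 genes by Benjamini and Hochberg, threshold 0.05). Of all tested genes, 32.8% were called higher and 32.7% lower. The 2 groups of libraries did not overlap in those 8 genes, and over all tested genes H3B-8800 lay wholly above DMSO in 41.6% and wholly below in 40.9%. NUPR1, CHAC1 and ATF3 rose the most, DDIT3 and SESN2 rose over 3-fold, and ATF4, TRIB3 and DDIT4 rose by 1.32-fold to 1.62-fold. PPP1R15A did not pass. The median log2 change of the 9 genes was 1.65, and that of all genes tested was 0.01. The 9 genes were chosen with earlier results of these data known, and ATF3 reached the mean needed for testing only through the H3B-8800 libraries. The count of calls and the median are therefore no support in themselves. With libraries scaled to their totals, the same 8 genes were called higher with a median of 1.47, and the median of all genes became -0.16; then 2230 genes were higher and 3927 lower, against 3102 and 3097 with TMM scaling. With no filter on low counts the 8 calls also held.

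**Figure D1:**
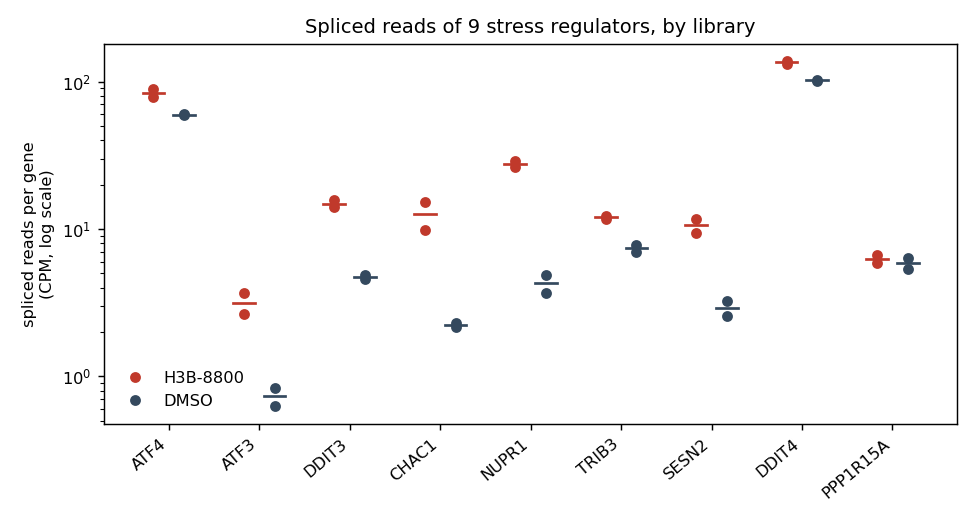
Spliced reads per gene in CPM, on a log axis, in each of the 2 H3B-8800 and 2 DMSO libraries; each dot is a library. In 8 genes both H3B-8800 dots lie above both DMSO dots, and in PPP1R15A the groups overlap.

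ATF4 itself had 78.3 and 88.7 CPM in the H3B-8800 libraries, against 59.4 and 60.1 CPM in the DMSO libraries. Both treated libraries lay above both controls, and the treated pair was the more spread of the 2 groups. The means were 83.5 ± 7.37 CPM with H3B-8800 and 59.7 ± 0.455 CPM with DMSO (SD, n = 2 per group), a log2 change of 0.48 (SE 0.08; adjusted p = 0.000124). The rise was 1.40-fold, and 24.1% of all tested genes had a larger log2 change. The value rests on 1 listed intron of 101 bp, between coding exons, at chr22:39521672-39521772 (hg38), crossed by 895 and 1101 reads with H3B-8800 and by 854 and 863 with DMSO. GENCODE 29 lists 4 ATF4 pseudogenes, and their part in these counts was not tested.

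ATF3 is a bZIP factor that ATF4 induces and that represses or activates its targets depending on its partner. It had 3.67 and 2.66 CPM with H3B-8800, against 0.626 and 0.835 CPM with DMSO. The groups did not overlap. The log2 change was 2.10 (SE 0.43; adjusted p = 0.000774), or 4.28-fold, at the only listed intron, which lies between coding exons at chr1:212615262-212618126. The counts were small, 42 and 33 spliced reads with H3B-8800 against 9 and 12 with DMSO, and the gene reached the mean of 1 CPM needed for testing through the H3B-8800 libraries.

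DDIT3 encodes CHOP, a C/EBP-family factor that pairs with other bZIP proteins and is known for promoting cell death when stress persists. It had 15.7 and 14.1 CPM with H3B-8800, against 4.59 and 4.87 CPM with DMSO. Replicates lay close together and the groups were well apart. The means were 14.9 ± 1.10 and 4.73 ± 0.198 CPM (H3B-8800 and DMSO; SD, n = 2 per group), a log2 change of 1.65 (SE 0.18; adjusted p = 3.57e-06), or 3.14-fold.

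NUPR1 is a small chromatin-associated stress protein reported to act with ATF4 and CHOP. It showed the largest change of the 9 genes: 26.3 and 29.003 CPM with H3B-8800, against 3.69 and 4.87 CPM with DMSO. Each treated library was several-fold above each control. The log2 change was 2.69 (SE 0.17; adjusted p = 1.83e-08), or 6.46-fold, and only 0.201% of tested genes had a larger one. Its listed intron, of 336 bp, lies in the 3′ UTR of the annotated transcript at chr16:28537670-28538005 on the minus strand, and was crossed by 301 and 360 reads with H3B-8800 and by 53 and 70 with DMSO.

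CHAC1, a glutathione-degrading enzyme and a widely used ATF4 target, had 9.88 and 15.3 CPM with H3B-8800, against 2.16 and 2.30 CPM with DMSO. Relative to their level, its treated libraries lay further apart than those of the other 8 genes, and both stood far above the controls. Its log2 change was 2.50 (SE 0.26; adjusted p = 2.45e-06), or 5.65-fold. TRIB3 is a pseudokinase that binds ATF4 and CHOP and restrains them. It had 12.3 and 11.8 CPM with H3B-8800, against 7.03 and 7.79 CPM with DMSO. The groups did not overlap, and the log2 change was 0.70 (SE 0.17; adjusted p = 0.00316), or 1.62-fold.

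SESN2 and DDIT4, which encodes REDD1, restrain the growth kinase complex mTORC1, Sestrin 2 when leucine is lacking and REDD1 through the TSC complex. SESN2 had 11.7 and 9.43 CPM with H3B-8800, against 2.57 and 3.27 CPM with DMSO, summed over 9 introns. Its groups were well apart, with a log2 change of 1.85 (SE 0.24; adjusted p = 1.52e-05), or 3.60-fold. DDIT4 had 137.6 and 132.6 CPM with H3B-8800, against 100.9 and 103.3 CPM with DMSO. It rose by the smallest amount among the 8, with a log2 change of 0.40 (SE 0.06; adjusted p = 7.13e-05), or 1.32-fold, and 27.9% of tested genes had a larger one. That 1.32-fold was still larger than the spread between replicates.

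PPP1R15A, the stress-induced subunit that directs protein phosphatase 1 to eIF2, had 5.86 and 6.69 CPM with H3B-8800, against 5.36 and 6.40 CPM with DMSO. The groups overlapped. The log2 change was 0.09 (SE 0.22; adjusted p = 0.728), and its sign turned with the scaling, to -0.08 with libraries scaled to their totals. Its 2 introns were crossed by few reads, so a small change would not have been detectable.

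**Figure D2:**
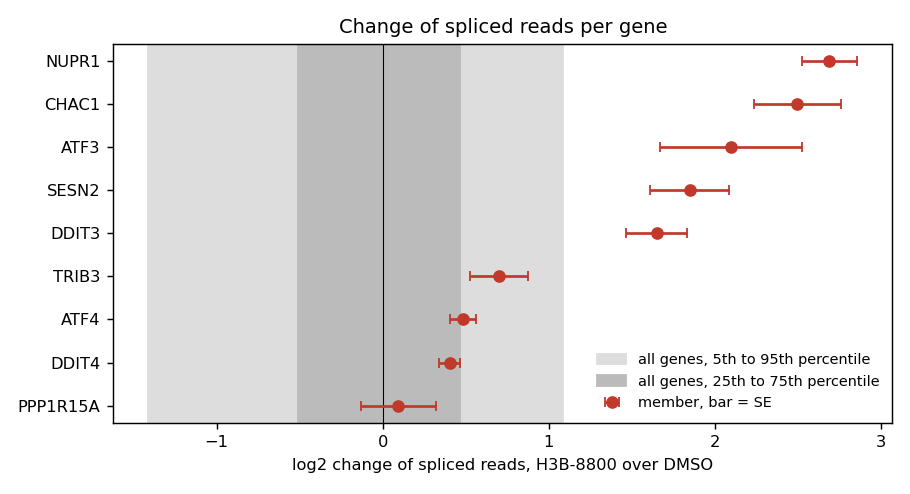
Log2 change of spliced reads per gene, H3B-8800 over DMSO, with its SE, for the 9 genes with listed introns. The values run from 2.69 in NUPR1 down to 0.09 in PPP1R15A, whose sign turns to -0.08 when libraries are scaled to their totals.

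Levels can be set between genes only per intron crossed. With H3B-8800 the order by mean CPM per listed intron was ATF4 at 83.5, DDIT4 at 67.5, NUPR1 at 27.7, DDIT3 at 7.44, CHAC1 at 6.30, TRIB3 at 6.02, ATF3 at 3.17, PPP1R15A at 3.14 and SESN2 at 1.17. Neighbours whose libraries overlapped there were DDIT3 with CHAC1, CHAC1 with TRIB3, and ATF3 with PPP1R15A. With DMSO the order was ATF4 at 59.7, DDIT4 at 51.1, NUPR1 at 4.28, TRIB3 at 3.71, PPP1R15A at 2.94, DDIT3 at 2.37, CHAC1 at 1.11, ATF3 at 0.731 and SESN2 at 0.325, and only NUPR1 and TRIB3 overlapped. ATF4 and DDIT4 led in both groups, but their order depends on which introns are averaged. With H3B-8800 intron 1 of DDIT4 was crossed by 1197 and 1290 reads and intron 2 by 376 and 356. The ATF4 intron was then crossed by 895 and 1101 reads. With DMSO the DDIT4 introns had 1107 and 1122 reads and 343 and 363 reads, against 854 and 863 in ATF4. DDIT3 and CHAC1 stood above TRIB3 and PPP1R15A in mean level per intron with H3B-8800 and below both with DMSO.

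The 5 genes outside the list named next had the pattern over the 4 libraries closest to that of ATF4 by Euclidean distance between centred log2 CPM values among 6690 genes. TBC1D4 came first, at a distance of 0.0241 and with a log2 change of 0.48, followed by SCO1 (0.0440), ABLIM1 (0.0446), PPP2R2D (0.0475) and ZC3HAV1 (0.0520). Their log2 changes lay between 0.44 and 0.53. With 4 libraries many genes can share such a pattern.

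Read intron by intron, spliced reads were higher in 13 and lower in none of the 16 introns of these genes that were tested, where 19.1% of 66136 tested introns were called higher and 23.9% lower. Of the 3 introns of SESN2 among them, those with 2.81 and 1.39 below reached the needed mean of 10 reads through the H3B-8800 libraries only, so the count is no support in itself. Without H3B-8800 replicate 1 or 2, edgeR called no intron of any gene, so these settings decide nothing about single introns; the change was then 2.76 and 2.62 in NUPR1, against 2.69, and 0.23 and 0.43 in intron 2 of DDIT4, against 0.32. In DDIT3, intron 1, in the 5′ UTR at chr12:57517754-57520417, was crossed by 87 and 92 reads with H3B-8800 and by 19 and 22 with DMSO, a log2 change of 2.39 (SE 0.25). Intron 3 of DDIT3, between coding exons at chr12:57517181-57517268, was crossed by 92 and 83 reads with H3B-8800 and by 47 and 48 with DMSO, a log2 change of 1.15 (SE 0.21). With H3B-8800 both introns were thus crossed about equally often, while with DMSO the 5′ UTR intron had under 50% of the reads of the coding one. A test of unequal change among the introns of a gene (edgeR) gave DDIT3 an adjusted p of 0.0184, where 8% of 7797 genes passed. The call was lost without any 1 of the 4 libraries, with adjusted p values of 0.0552 to 0.216, in settings where 87 to 315 genes passed, against 624 with all 4. This test was added after the values had been seen.

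Of the other genes with several listed introns, none passed that test (smallest adjusted p = 0.251, TRIB3). In TRIB3, intron 2 (chr20:388302-391286) was crossed by 52 and 60 reads with H3B-8800 and by 46 and 59 with DMSO, a log2 change of 0.36 (SE 0.24; adjusted p = 0.227), and these counts overlapped. Intron 3 of TRIB3 (chr20:391580-396197) was crossed by 89 and 86 reads with H3B-8800 and by 55 and 53 with DMSO, and rose by 0.97 (SE 0.21; adjusted p = 0.000688). The introns of CHAC1, at chr15:40953815-40954227 and chr15:40954264-40955372, rose by 2.30 and 2.79, and those of DDIT4 by 0.43 and 0.32. Among the 9 introns of SESN2, 3 had enough reads for testing. Intron 4 was crossed by 24 and 18 reads with H3B-8800 and by 5 and 2 with DMSO, and rose by 2.81. Intron 7 was crossed by 18 and 15 reads with H3B-8800 and by 6 and 9 with DMSO, and rose by 1.39. Both of these entered the test through the H3B-8800 libraries, where they are high. Intron 9 rose by 1.51.

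**Figure D3:**
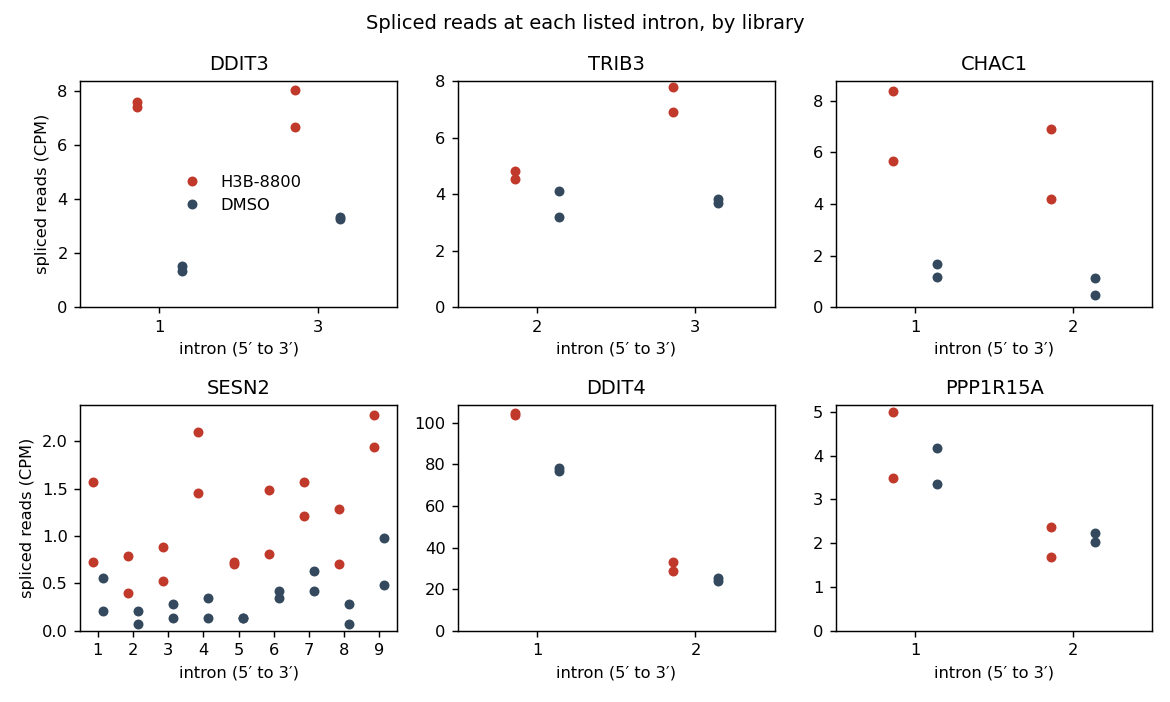
Spliced reads at each listed intron in each library, 1 panel per gene, with introns numbered along the transcript. In DDIT3 the 5′ UTR intron has fewer reads than the coding intron with DMSO, while with H3B-8800 the 2 introns are close.

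Intronic reads of these genes were few, and their share was higher in both H3B-8800 libraries than in both DMSO libraries. Summed over the 22 introns, 121 and 138 intronic reads were counted with H3B-8800, against 38 and 37 with DMSO. They made up 3.39% (95% Wilson interval 2.85% to 4.04%) and 3.46% (2.94% to 4.07%) of all reads of both kinds with H3B-8800. With DMSO the shares were 1.40% (1.02% to 1.91%) and 1.31% (0.953% to 1.80%). The groups did not overlap, with means of 3.43% ± 0.0469 in the H3B-8800 group and 1.36% ± 0.0619 in the DMSO group (SD, n = 2 per group), a ratio of 2.53. The difference of 2.07 percentage points became 5.21 when each gene was weighted equally. A two-sided exact permutation test gave p = 0.3333, the smallest that 2 against 2 libraries allow. Over all genes the shares were 8.22% with H3B-8800 and 4.24% with DMSO, a ratio of 1.94. The intervals cover counting error only, and both mates of a pair may have been counted, which makes them too narrow.

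Spliced reads still made up most of the signal. Intronic reads stayed under 10 in every library in 17 of the 22 introns, and 11 had none in either DMSO library. Per library total, H3B-8800 lay wholly above DMSO in 12 of the 22 introns, against 16.5% of all 142206 introns, most of which hold few reads. In ATF4 the 101 bp intron held 6 and 13 intronic reads in the H3B-8800 libraries, against 4 and 0 in the DMSO libraries, beside the 854 to 1101 spliced reads given above. In NUPR1 there were 0 and 2 intronic reads with H3B-8800 and none with DMSO, and in ATF3 5 and 2 with H3B-8800 and none with DMSO. Of the 22 introns, 5 overlap an annotated exon of the same strand, among them intron 1 of DDIT3, which contains MIR616.

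Only 2 of the 22 introns had enough intronic reads for a test of their own. In DDIT4, intron 1, of 96 bp in the 5′ UTR at chr10:72274061-72274156, held 24 and 30 intronic reads in the H3B-8800 libraries, against 6 and 16 in the DMSO libraries, or 4.27 and 4.99 RPKM against 0.966 and 2.58 RPKM. The groups did not overlap but the DMSO libraries differed from each other by over 2-fold. The intron was crossed by 1197 and 1290 spliced reads with H3B-8800 and by 1107 and 1122 with DMSO. The log2 change of intronic reads was 1.38 (SE 0.54; adjusted p = 0.0495), where 48.2% of 12013 tested introns were called higher and 5.74% lower. The ratio of intronic to spliced reads rose by 1.13 (SE 0.45; adjusted p = 0.0469), where 56.5% of 9937 tested introns were called higher and 2.88% lower and the median change was 1.62. Both calls sit at the threshold: the ratio was called in 1 of 7 alternatives and the intronic reads in 1 of 8. With TMM scaling of the intronic reads, which centres them on the typical intron, the intronic change was 0.34 (adjusted p = 0.643).

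In PPP1R15A, intron 2, of 715 bp between coding exons at chr19:48874899-48875613, held 28 and 20 intronic reads in the H3B-8800 libraries, against 8 and 6 in the DMSO libraries, or 0.674 and 0.451 RPKM against 0.175 and 0.131 RPKM. Both treated libraries were at least 2-fold above both controls. It was crossed by 27 and 21 spliced reads with H3B-8800 and by 29 and 32 with DMSO, so that intronic and spliced reads were about equal with H3B-8800. With DMSO the intron lay under the mean of 10 intronic reads needed, so it was tested only because of the reads it had with H3B-8800. The ratio rose by 2.10 (SE 0.66; adjusted p = 0.0161) and intronic reads by 1.86 (SE 0.55; adjusted p = 0.0161). Without H3B-8800 replicate 1 or 2 the ratio change was 2.03 and 2.16 (adjusted p = 0.0754 and 0.0522). The intronic change was then 1.54 and 2.12 (adjusted p = 0.127 and 0.102), in settings where no intron of the series passed. Without DMSO replicate 2 the ratio change was 1.84 (adjusted p = 0.0684), and with TMM scaling the intronic change was 0.83 (adjusted p = 0.266). Both this intron and the DDIT4 intron lie wholly within an exon of another annotated transcript of the same gene, a protein-coding one for PPP1R15A and a retained-intron one for DDIT4.

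Summed per gene, 4 of the 9 genes had enough reads of both kinds for a test of the ratio of intronic to spliced reads. SESN2, PPP1R15A and TRIB3 reached the needed mean of 10 intronic reads only through the H3B-8800 libraries, where they are high, and DDIT4 reached it in both groups, so the number of calls is no support. Of 7566 tested genes 65.4% were higher and 2.35% lower, with a median of 1.35, and the 4 genes were called higher. SESN2 had 23 and 28 intronic reads over its 9 introns with H3B-8800, against 0 and 1 with DMSO. It had too few reads for the test without H3B-8800 replicate 1 or 2. The SESN2 ratio rose by 3.78 (SE 0.97; adjusted p = 0.00271), a value that rests on a single DMSO intronic read. Per library total its intronic reads alone, not set against its spliced reads, were 54.4 times as many with H3B-8800 as with DMSO. The exact 95% counting interval was 9.33 to 2190, also set by that single read. It pools the libraries of each group and covers counting error only. Both mates of a pair may have been counted, which makes it too narrow. Spread along the gene, 7 of the 9 introns of SESN2 had intronic reads with H3B-8800 and 1 with DMSO. PPP1R15A rose by 1.77 (SE 0.55; adjusted p = 0.00959), TRIB3 by 1.41 (SE 0.57; adjusted p = 0.0386) and DDIT4 by 1.01 (SE 0.42; adjusted p = 0.0449).

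TRIB3 held 18 and 22 intronic reads with H3B-8800, against 7 and 4 with DMSO, in introns of 2985 and 4618 bp. These groups did not overlap. The TRIB3 ratio was not called with the DESeq2 test (adjusted p = 0.0930). TRIB3 had too few reads for the ratio test without H3B-8800 replicate 2. In DDIT4 there were 24 and 38 intronic reads with H3B-8800, against 8 and 20 with DMSO, and its DMSO libraries were far apart. Its ratio was likewise not called with the DESeq2 test (adjusted p = 0.0994). Nor did edgeR call it once the filter was lowered to 5 reads on average (adjusted p = 0.0556). The DDIT4 call was lost without H3B-8800 replicate 2 (0.68, adjusted p = 0.286) and without DMSO replicate 1 (0.51, adjusted p = 0.330). That of TRIB3 was lost without H3B-8800 replicate 1 (1.52, adjusted p = 0.0645) and without DMSO replicate 2 (0.99, adjusted p = 0.212). That of PPP1R15A was lost without H3B-8800 replicate 1 (1.44, adjusted p = 0.0751) and without DMSO replicate 2 (1.56, adjusted p = 0.0627).

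**Figure D4:**
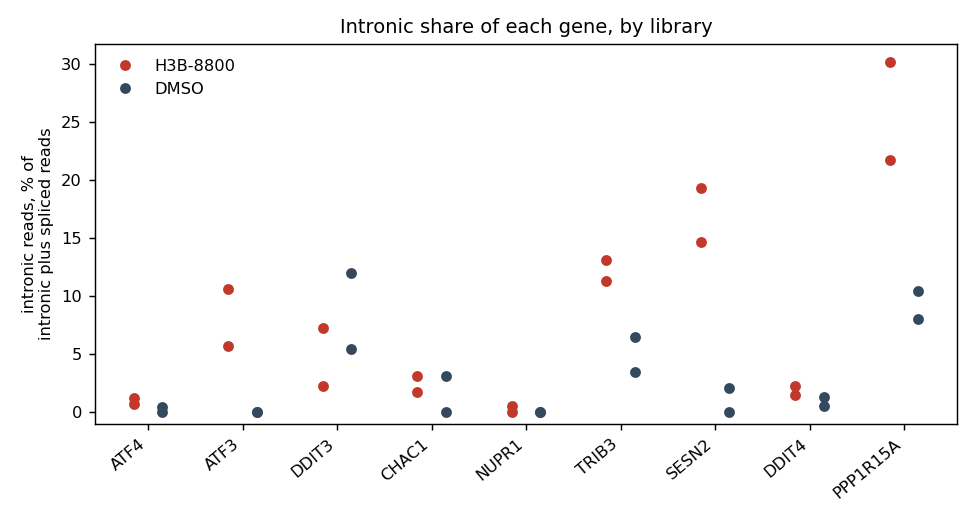
Intronic reads as a percentage of intronic plus spliced reads of each gene, in each library. SESN2 and PPP1R15A have the widest gap between H3B-8800 and DMSO dots; for ATF3 and SESN2 the DMSO values rest on 0 or 1 intronic read.

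The genes known to work around ATF4 changed in both directions. Among 36 tested genes of a list of other ATF4 targets, 16 were higher and 11 lower, where 32.8% of all tested genes were higher and 32.7% lower. Their median log2 change was 0.18, and 0.0015 with libraries scaled to their totals. HMOX1, haem oxygenase, which NRF2 also controls, rose by 1.89 (SE 0.06), and SLC7A5, a leucine transporter subunit, rose by 0.96 (SE 0.06). SHMT2, a mitochondrial serine enzyme, fell by 0.83 on the log2 scale (SE 0.05). Of 12 tested bZIP partners and other stress factors, 5 were higher and 1 lower, with a median of 0.39, and 0.21 with library totals. JDP2, a close relative of ATF3, rose by 1.36 (SE 0.10), NFE2L1 by 0.79 and ATF6, a sensor of the endoplasmic reticulum, by 0.63.

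Of 9 tested CHOP-linked death and oxidation genes, 3 were higher and 2 lower, close to the shares of 32.8% and 32.7% over all genes, with a median of 0.16 that turned to -0.014 with library totals. The 3 were PMAIP1, which encodes the death protein NOXA and rose by 1.43 (SE 0.30), TNFRSF10B, which encodes the death receptor DR5 (0.86), and ERO1A, an oxidase of the endoplasmic reticulum (0.62). The 2 lower ones were BAX, which fell by 0.47 (SE 0.16), and BAK1, which fell by 0.36 (SE 0.09). Of 16 genes of eIF2, its kinases, its exchange factor and its phosphatase, 6 were higher and 7 lower, against the same shares over all genes, with a median of 0.06 that turned to -0.11 with library totals. EIF2B3 and EIF2B5, subunits of the exchange factor that phosphorylated eIF2 inhibits, fell by 1.49 (SE 0.08) and 1.12 (SE 0.07), and PPP1CB, a catalytic phosphatase subunit, rose by 0.93.

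Paralogues, related genes outside the stress list, give a comparison by family. Of the 7 tested, 4 were higher and 2 lower, where 32.8% of all tested genes were higher and 32.7% lower. Their median was 0.64, and 0.47 with library totals. SESN1 rose by 0.64 (SE 0.20), against 1.85 in SESN2. TRIB1 rose by 0.74 (SE 0.26), close to the 0.70 of TRIB3. CHAC2 fell by 0.71 (SE 0.19), against the rise of 2.50 in CHAC1. ATF5, which is close to ATF4, fell by 1.10 in spliced reads (SE 0.39; adjusted p = 0.0253). Its only listed intron was crossed by 14 and 15 reads with H3B-8800 and by 41 and 34 with DMSO. The same intron held 70 and 80 intronic reads with H3B-8800, against 23 and 19 with DMSO. PPP1R15B, the constitutive counterpart of PPP1R15A, had a change of 0.51 (SE 0.28; adjusted p = 0.129). CEBPZ rose by 0.88 and is counted among the 4, although it shares only the C/EBP name and not the bZIP fold. Differences between paralogues were not tested.

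**Figure D5:**
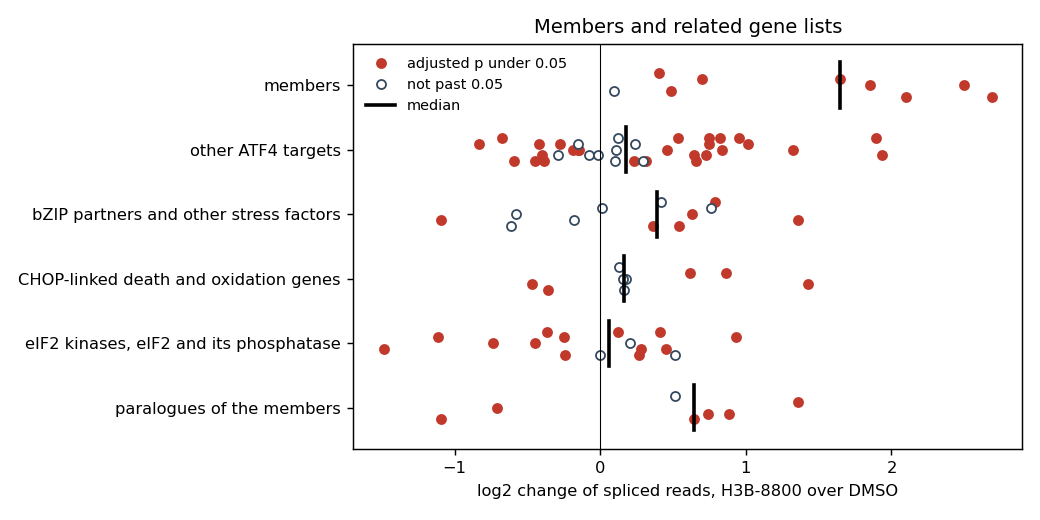
Log2 change of spliced reads, H3B-8800 over DMSO, for each tested gene of the 9 members and of 5 related lists; filled dots passed an adjusted p of 0.05, open dots did not, and bars are medians. The members have a median of 1.65, while the medians of the other lists run from 0.06 to 0.64; with library totals those of the CHOP-linked and eIF2 lists turn to -0.014 and -0.11.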

How the data were processed

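SUM159 cytoplasmic polyA RNA was sequenced from 2 H3B-8800 and 2 DMSO libraries with a strand-specific kit, per the labels' protocols. Per the submitters' processing notes, HISAT2 2.0.4 was used and hg38 and mm10 were the builds. The counting tool, and whether strand was used, are not given in the sources used here. The deposited files have no header and give, for 142224 introns, 2 read counts and an RPKM value that the authors computed from the first count, the intron length and the library total. That the second count minus the first holds spliced reads is inferred from the values; for 18 introns no second count was given. Even numbers made up 70.9% to 72.3% of non-zero intronic counts. The deposited coordinates name the flanking exon bases, so 1 base was trimmed from each side, after which 99.87% of introns matched GENCODE 29; coordinates are 1-based on hg38.

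Spliced counts per gene (1 CPM or more on average), spliced counts per intron (mean of at least 10 reads, scaled by the gene-level TMM factors), intronic counts per intron (mean of at least 10 reads, scaled to library totals) and the ratio of both kinds (mean of at least 10 reads of each) were tested with edgeR 4.0.16 in R 4.3.3, using the quasi-likelihood test with Benjamini-Hochberg adjustment over all features at 0.05. SEs were derived from the F statistic. Unequal change among introns of a gene was tested with edgeR's splicing test. The tests were checked on simulated counts. DESeq2 1.42.0, other scalings and filters, a replicate block and leaving out each library were tried. The likeness to ATF4 used log2 CPM with a pseudocount of 0.5 for genes averaging at least 10 CPM. All members are named. Of each other list, the 3 genes with the smallest adjusted p and all tested paralogues are named. The 2 CHOP-linked genes called lower are named as well. The members and lists were chosen with earlier results of these data known. Members were counted, not tested as a set. CEBPB was not analysed here.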

Additional observations from a re-analysis of the deposited data

How the results depend on the processing

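Of 77 alternative values for the 8 genes called higher in spliced reads, 76 kept direction and call. Without each gene's most-read intron 4 genes were called: ATF4, ATF3 and NUPR1 then have no intron left, TRIB3 had 0.38 (adjusted p = 0.232) and DDIT3 2.41. PPP1R15A turned sign with library totals (-0.081), without its most-read intron (-0.053), and when a library was left out, where it ranged from -0.036 to 0.22; its introns ranged from -0.10 to 0.41 and from -0.32 to 0.16. For ratios per gene, DESeq2 gave 113 genes lower (178 with edgeR) and 2 members higher (4 with edgeR), and leaving out a library gave 1 to 3. For ratios per intron, DESeq2 gave 158 lower (286 with edgeR) and 0 members, a mean of at least 5 reads gave 1 member and the replicate block 1, against 2; leaving out a library gave 3689 to 5497 introns higher, 159 to 216 lower and 0 to 1 members. For intronic reads, TMM gave 2566 higher and 2322 lower, against 5793 and 689, and 0 members; DESeq2 gave 349 lower and 0 members; a mean of at least 5 reads gave 1 member and the replicate block 1, against 2. Leaving out a library gave 0 to 6164 higher, 0 to 602 lower and 0 to 2 members. Without H3B-8800 replicate 1 or 2, edgeR called no intron for intronic reads (smallest adjusted p = 0.0940 and 0.0930), with 4254 and 4070 at an unadjusted p under 0.05. For spliced reads per intron, leaving out a library gave 0 to 9686 introns higher, 0 to 12457 lower and 0 to 13 members, against 12608, 15796 and 13; the 0 again arose without either H3B-8800 library (smallest adjusted p = 0.0900 and 0.0866; 23861 and 24122 unadjusted). Unequal change had 87 to 315 genes, against 624, and 0 members with any library left out, against 1. The difference in intronic share was 2.07 percentage points, 5.21 with genes weighted equally, and 2.03 to 2.11 with a library left out. Replicate numbers were shared between groups, but same-numbered libraries did not deviate together (correlation 0.05 over 9468 genes), so the replicate block was an alternative; it gave 8 members in spliced reads and 4 in ratios per gene. The causes were not tested. The number of libraries and few intronic reads limit the tests of single introns.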
